A study of Homo sapiens with 8 samples.

Results

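The BCL2 family genes described here were BCL2, BCL2L1, MCL1, BCL2A1, BAX, BAK1, BCL2L11 (BIM), BID, PMAIP1 (NOXA) and BBC3 (PUMA). They were chosen by name, as the gene probes of the array that carry 1 of these names, which gave 16 probes for 10 of the 43317 gene names on the array. SAS, an established human line of tongue squamous cell carcinoma, was transfected with 25 nM of 1 of 3 microRNA (miRNA) mimics (miR-874-3p, miR-210-3p and miR-629-3p), or of a negative control RNA (NC). Each group was represented by 2 Agilent 1-colour arrays, for 8 in all. The labels name SAS alone, while the study's account of the array experiment names SAS/GFP, that is SAS cells with a GFP vector, and which of them was used was not tested. The labels give puromycin in the medium of every group, 48 h from transfection to extraction and no drug treatment, while the study's methods give a shorter time and another extraction kit. All groups came from 1 cell line. A transient mimic can raise a miRNA far above its own level, and how far it did so in these samples was not tested. The study asked which genes change when a miRNA linked to cisplatin resistance is supplied, and the genes here are those that set how readily a cell enters apoptosis.

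Proteins of the BCL2 family decide whether the outer membrane of the mitochondrion is opened. BAX and BAK1 are the effectors that form the pore, through which cytochrome c leaves and caspases are switched on. BCL2, BCL2L1 (BCL-XL), MCL1 and BCL2A1 (BFL-1) hold the effectors in check, and the BH3-only proteins BCL2L11, BID, PMAIP1 and BBC3 report stress by blocking these guardians or by engaging the effectors directly. Squamous carcinomas often lean on BCL2L1 and MCL1, and cisplatin kills largely through this mitochondrial route.

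The 3 mimics are shown because their seeds, bases 2 to 8 of the mature strand and in capitals here, are the part that pairs with target mRNAs, and the 3 seeds differ from each other. The sequences are those of RefSeq on GRCh38.p14, where miR-629-3p lies at chr15:70079387-70079408, miR-210-3p at chr11:568112-568133 and miR-874-3p at chr5:137647582-137647603, all on the minus strand.
hsa-miR-629-3p: gUUCUCCCaacguaagcccagc
hsa-miR-210-3p: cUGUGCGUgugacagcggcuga
hsa-miR-874-3p: cUGCCCUGgcccgagggaccga
On the mRNA strand the letters that pair with the seed of miR-629-3p, GGGAGAA, stood in 0.747% of the 58201 gene probes. Those for miR-210-3p, ACGCACA, stood in 0.131%, and those for miR-874-3p, CAGGGCA, in 0.387%. None of them stood in the 16 probes of the family. A probe covers 60 bases of a transcript, so the rest of each transcript was not searched.

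All 8 arrays lay on 1 slide and were scanned at 1 time. Slide row 1 held the arrays of miR-629-3p (columns 1 and 2) and miR-210-3p (columns 3 and 4). Row 2 held those of miR-874-3p (columns 1 and 2) and NC (columns 3 and 4). Values are log2 of the scanner's background-subtracted signal relative to the array's 75th percentile. Between 41.8% of gene probes (NC replicate 2) and 49.8% (miR-629-3p replicate 1) were well above background, and no gene spot was saturated. After the filter on detection 21283 genes were tested, with all 10 family genes among them. Of the markers, 10 of 10 squamous epithelial genes were well above background on all 8 arrays, as were 2 of 6 leukocyte genes (PTPRC and CD14), 2 of 4 endothelial genes (VWF and CDH5) and 0 of 5 fibroblast genes. MS4A1, COL1A2, COL3A1, DCN and LUM were well above background on no array. Groups were compared with limma over all 8 arrays, and a gene was called at a Benjamini-Hochberg adjusted p under 0.05 over all genes tested. Nothing in the labels says whether replicate arrays came from separate transfections, so the p-values measure only the spread between these samples. Less RNA per cell and fewer cells of a kind cannot be told apart in such bulk samples.

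PMAIP1, the BH3-only gene for NOXA, had the largest difference between groups of the 10 genes, and BCL2L1, the gene for the guardian BCL-XL, followed the same order of groups. Both were highest after miR-629-3p, then after miR-210-3p, then after miR-874-3p, and lowest with NC. The group means of BCL2A1 had this order as well. The groups lay on the slide in the same order, from row 1, columns 1 and 2, to row 2, columns 3 and 4. In nearly this order the share of gene probes well above background fell. It was 49.8% and 48.3% for miR-629-3p, 46.5% and 47.5% for miR-210-3p, 46.3% and 42.7% for miR-874-3p, and 42.4% and 41.8% for NC. Mimic, slide position and detection cannot be told apart in this order. BCL2L11 had another order on its brightest probe, lowest after miR-629-3p and highest after miR-210-3p. All its probes were lowest after miR-629-3p, but A_33_P3251932 was highest after miR-874-3p. Of the 10 genes, limma's F test over all groups called 3, PMAIP1 at an adjusted p of 0.00882, BCL2L11 at 0.0142 and BCL2L1 at 0.0182, against 25.2% of all genes tested. BCL2A1 had an adjusted p of 0.0608, and the other 6 genes lay between 0.195 and 0.884. The count fell to 0 without either miR-629-3p array and to 1 without either miR-210-3p array, where a lone array borrows the spread of the rest. The share of all genes that were called fell as well, to 3.24% and 3.68% without a miR-629-3p array and to 5.80% and 6.32% without a miR-210-3p array.

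**Figure D1:**
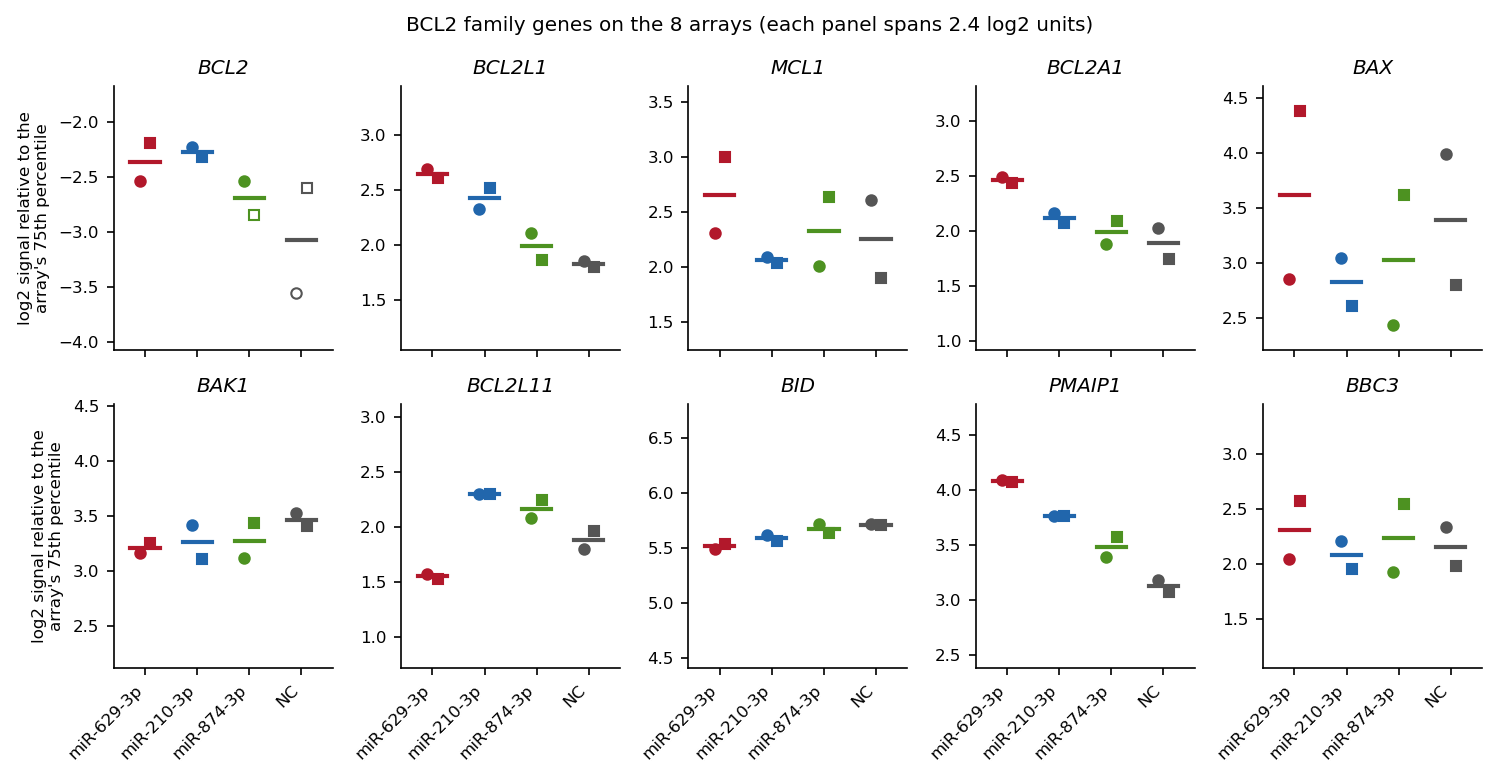
Log2 signal of each of the 10 genes relative to the array's 75th percentile, by group. Circles are replicate 1, squares replicate 2, bars the mean of both, and open symbols arrays on which the probe was not well above background. PMAIP1 stepped down from 4.09 on the mean of the miR-629-3p arrays to 3.13 on that of the NC arrays, while the replicates of BAX lay up to 1.53 apart.

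After miR-629-3p, 3 of the 10 genes were called against NC, against 16.8% of all genes tested (9.28% higher and 7.47% lower). All 3, PMAIP1, BCL2L1 and BCL2A1, were higher. After miR-210-3p, PMAIP1 and BCL2L1 were called and higher, 2 of 10 genes against 6.05% of all genes (3.85% higher and 2.2% lower). After miR-874-3p limma called 0 of the 10 genes, against 0.423% of all genes, and every other setting and test that was run also called 0. At an unadjusted p under 0.05 the last comparison held 2 of the 10 genes, PMAIP1 and BCL2L11, against 16.4% of all genes. The 3 comparisons share the NC arrays. The arrays of the 2 groups did not overlap for 7 of the 10 genes after miR-629-3p (65.5% of all genes), 6 after miR-210-3p (61.5%) and 3 after miR-874-3p (43.6%). BCL2 is among the 7 and the 6, and it passed the filter on detection only through miR-629-3p and miR-210-3p. The median difference of the 10 genes from NC was 0.31 after miR-629-3p, 0.08 after miR-210-3p and 0.09 after miR-874-3p on the log2 scale, beside 0.03, 0.05 and -0.01 over all genes tested. None of the 10 genes met the study's own rule of an unadjusted p under 0.05 with a 2-fold change in these comparisons, which 5.26%, 3.14% and 2.02% of all genes met. The arrays of NC and miR-874-3p lay in another slide row than those of miR-629-3p and miR-210-3p, so in any comparison across the rows the row and the mimic cannot be told apart. Within a row each group filled its own columns, so there the column and the mimic cannot be told apart either.

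**Figure D2:**
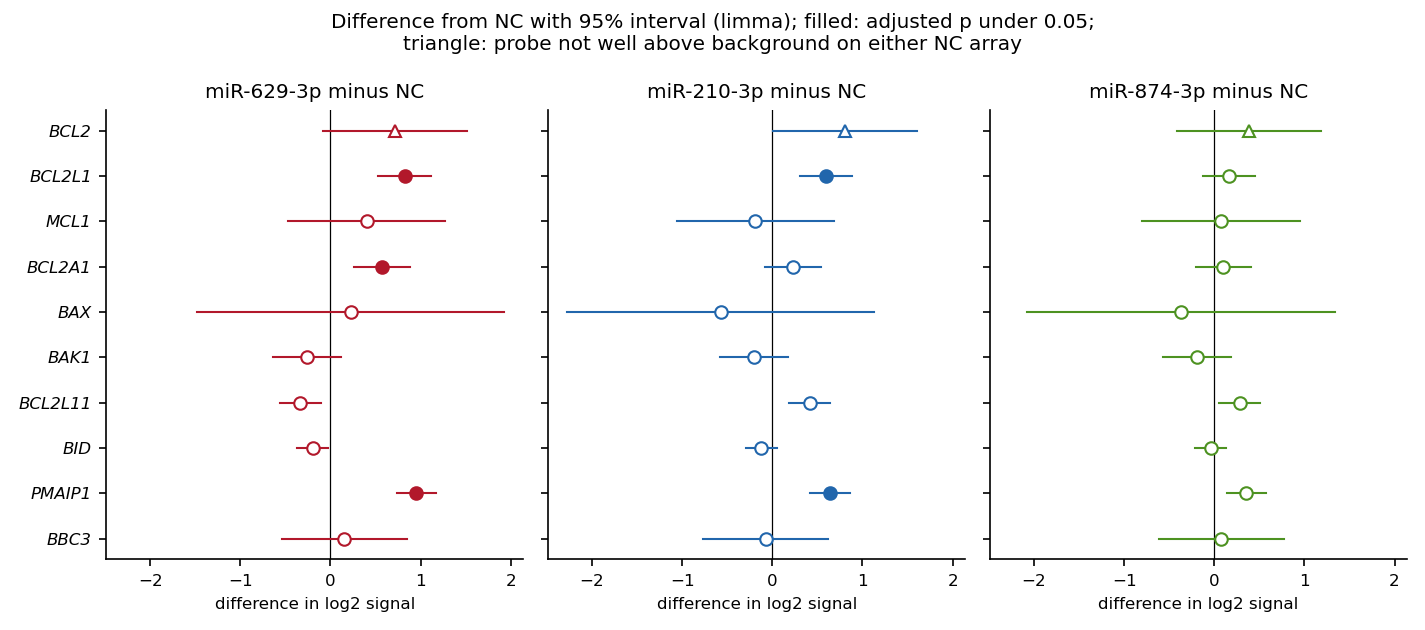
Difference in log2 signal between each mimic and NC for the 10 genes, with the 95% interval from limma. Filled symbols passed an adjusted p of 0.05, and triangles mark BCL2, whose probe was not well above background on either NC array. The intervals of PMAIP1 and BCL2L1 lay above 0 after miR-629-3p and miR-210-3p, and those of BAX were the widest.

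Promoters are shown for the 4 genes that were called in any comparison. They are the 250 bases before the transcription start in RefSeq on GRCh38.p14, read on the gene's strand, with capitals for every match to the motifs searched. The windows lie at chr18:59899746-59899995 (plus strand) for PMAIP1, chr20:31723964-31724213 (minus strand) for BCL2L1, chr15:79971197-79971446 (minus strand) for BCL2A1 and chr2:111120664-111120913 (plus strand) for BCL2L11.
PMAIP1: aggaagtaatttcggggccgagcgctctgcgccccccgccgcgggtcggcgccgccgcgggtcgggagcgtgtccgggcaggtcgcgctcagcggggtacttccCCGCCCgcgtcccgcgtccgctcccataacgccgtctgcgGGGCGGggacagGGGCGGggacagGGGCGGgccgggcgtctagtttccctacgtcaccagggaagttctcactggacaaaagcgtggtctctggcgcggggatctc
BCL2L1: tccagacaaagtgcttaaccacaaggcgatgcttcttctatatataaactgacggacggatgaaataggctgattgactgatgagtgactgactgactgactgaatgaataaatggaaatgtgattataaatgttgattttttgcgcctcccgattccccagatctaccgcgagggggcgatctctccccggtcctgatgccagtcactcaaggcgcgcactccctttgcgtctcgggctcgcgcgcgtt
BCL2A1: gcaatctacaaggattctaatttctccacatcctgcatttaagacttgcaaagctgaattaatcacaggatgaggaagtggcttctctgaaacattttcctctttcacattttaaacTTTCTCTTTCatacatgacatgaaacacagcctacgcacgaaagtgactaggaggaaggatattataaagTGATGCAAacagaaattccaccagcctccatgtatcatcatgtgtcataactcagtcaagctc
BCL2L11: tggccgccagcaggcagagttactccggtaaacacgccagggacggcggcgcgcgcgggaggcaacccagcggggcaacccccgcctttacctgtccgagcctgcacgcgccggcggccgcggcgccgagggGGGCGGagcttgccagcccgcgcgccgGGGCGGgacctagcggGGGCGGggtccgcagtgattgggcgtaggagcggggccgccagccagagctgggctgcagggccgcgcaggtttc
Motifs were searched on both strands as the letters TGACGTCA (CRE), TGATGCAA (a composite site of C/EBP and ATF factors), TGANTCA (AP-1), TTTCCCGC (E2F) and GGGCGG (GC box). Also searched were the core of an interferon-stimulated response element, 2 copies of GAAA that are 2 bases apart, and an NF-kB site, GGGA and TTCC that are 2 bases apart. The capitals in BCL2A1 are the interferon element on the reverse strand and TGATGCAA, which stood in 3.02% and 0.772% of 35116 RefSeq promoter windows of this length, and in no other family gene of the 9 with an entry. The capitals in PMAIP1 and BCL2L11 are GC boxes, found in 42.6% of all windows and in 5 of the 9 genes, with BAX, BAK1 and BID as the others. BCL2L1 has 2 entries, of which the upstream one is shown, and neither held a match. TGANTCA stood in BBC3 (6.57% of all windows), and CRE, NF-kB and E2F letters stood in none of the 9 genes. A match is a run of letters and not a bound site.

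Among the guardians, BCL2L1 rose after miR-629-3p and after miR-210-3p. Its log2 signal was 2.69 and 2.61 after miR-629-3p, 2.33 and 2.52 after miR-210-3p, 2.12 and 1.87 after miR-874-3p, and 1.85 and 1.80 with NC. No array of 1 group reached the level of the next group in this order. Relative to NC the rise was 0.82 ± 0.12 (SE, log2 scale, n = 2 arrays a group, adjusted p = 0.0128, 1.77-fold) after miR-629-3p and 0.60 ± 0.12 (adjusted p = 0.0463, 1.51-fold) after miR-210-3p. After miR-874-3p the difference was 0.16, with a 95% interval of -0.13 to 0.45 (adjusted p = 0.534). That comparison lay within a slide row, while both calls against NC lay across the rows. Within the other row, miR-629-3p against miR-210-3p gave 0.22 (adjusted p = 0.224) and was not called. The call after miR-629-3p was lost without miR-629-3p replicate 1 (adjusted p = 0.0836), replicate 2 (0.0659) or NC replicate 2 (0.0648). The call after miR-210-3p was lost without any 1 of the miR-629-3p, miR-210-3p and NC arrays (0.0982 to 0.196). The gene was read by 1 probe, so its splice forms, which have opposite effects on apoptosis, were not measured apart.

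BCL2A1, a short-lived guardian that inflammatory signals switch on in many cells, rose after miR-629-3p. Its signal was 2.49 and 2.43 after miR-629-3p, 2.17 and 2.07 after miR-210-3p, 1.88 and 2.09 after miR-874-3p, and 2.03 and 1.75 with NC. Both miR-629-3p arrays lay above the other 6, whose groups overlapped in part. The rise over NC was 0.57 ± 0.12 (SE, log2 scale, adjusted p = 0.0335, 1.49-fold), and after miR-210-3p the difference was 0.23 (95% interval -0.08 to 0.54). The call was lost without either miR-629-3p array, either miR-210-3p array or NC replicate 2, at adjusted p-values of 0.0696 to 0.154. The gene has 2 probes that disagree, and both are printed because the finding rests on 1 of them.
BCL2A1 A_23_P321703: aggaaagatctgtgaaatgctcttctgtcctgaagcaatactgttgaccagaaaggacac
BCL2A1 A_23_P152002: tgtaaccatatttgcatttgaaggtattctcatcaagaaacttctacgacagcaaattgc
The first gave the values above and was well above background on all 8 arrays, and the array's annotation places 33 of its 60 bases at chr15:80253220-80253252 (hg19, minus strand). The second, at chr15:80263136-80263195 (hg19, minus strand), was well above background on 0 arrays and was not tested. Which of them reports the level of BCL2A1 mRNA was not tested.

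BCL2, the founding guardian, was near the limit of detection. Of its 2 probes the brighter one is printed, since all statements on BCL2 rest on it. It lies at chr18:60985401-60985460 (hg19, minus strand).
BCL2 A_33_P3355185: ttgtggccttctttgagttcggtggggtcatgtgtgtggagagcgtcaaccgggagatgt
Its signal was -2.53 and -2.19 after miR-629-3p, -2.23 and -2.32 after miR-210-3p, -2.53 and -2.85 after miR-874-3p, and -3.55 and -2.60 with NC. It was well above background on 5 arrays, both after miR-629-3p, both after miR-210-3p and miR-874-3p replicate 1, and on neither NC array. On each NC array the probe was therefore set at the level of the dimmest probe detected there, or at its own where that was higher. Against their mean, the mean of BCL2 was at least 1.28-fold higher after miR-629-3p and 1.36-fold after miR-210-3p. These bounds do not include the spread between arrays and were not tested. The probe passed the filter on detection only through miR-629-3p and miR-210-3p, the same groups for which a bound is given. Its higher level there is thus in part set by that filter. The fitted differences, without that floor, were 0.72 (95% interval -0.08 to 1.51, adjusted p = 0.185) and 0.80 (0.002 to 1.60, adjusted p = 0.192). They became 0.237 and 0.324 without NC replicate 1. After miR-874-3p 1 of 2 arrays measured it, and no fold is given (adjusted p = 0.599). None of these was called. The other probe, A_23_P352266, was well above background on 1 array, miR-210-3p replicate 2, and was not tested.

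MCL1, a guardian with a fast turnover that PMAIP1 binds, had gaps between replicates as large as its differences between groups. Its signal was 2.32 and 3.00 after miR-629-3p, 2.09 and 2.04 after miR-210-3p, 2.02 and 2.64 after miR-874-3p, and 2.61 and 1.90 with NC. The highest arrays were miR-629-3p replicate 2, miR-874-3p replicate 2 and NC replicate 1. The difference from NC was 0.40 (95% interval -0.47 to 1.28) after miR-629-3p, -0.19 (-1.06 to 0.68) after miR-210-3p and 0.07 (-0.80 to 0.95) after miR-874-3p. Intervals of this width leave room for a 2-fold change after miR-629-3p or, downward, after miR-210-3p.

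The effector BAX had the widest replicate spread of the family. Its main probe is printed 10 times on each array, and its mean was 2.86 and 4.38 after miR-629-3p, 3.04 and 2.61 after miR-210-3p, 2.44 and 3.62 after miR-874-3p, and 3.99 and 2.80 with NC. The 10 spots of 1 array had an SD of 0.03 to 0.07, so the replicates of every group differed by far more than the spots. The gap between replicates was 1.53, 0.44, 1.18 and 1.19 on the log2 scale, and its mean of 1.08 was larger than that of 98.8% of all genes tested. Of 284 genes measured by a probe with several spots, 0 had a larger one. The median over all genes was 0.15.

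The second BAX probe, A_33_P3341144, gave -1.82 and -1.14 after miR-629-3p, -1.57 and -1.62 after miR-210-3p, -1.99 and -1.54 after miR-874-3p, and -1.65 and -2.11 with NC. In every group the same replicate was the higher one on both probes. The difference of BAX from NC on the main probe was 0.22 (95% interval -1.48 to 1.93) after miR-629-3p, -0.57 (-2.27 to 1.13) after miR-210-3p and -0.37 (-2.07 to 1.34) after miR-874-3p. None was called, and the direction turned when single arrays were left out.

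MCL1, BAK1 and BBC3 shared the signs of the BAX gaps in all 4 groups, with replicate 2 the higher array for miR-629-3p and miR-874-3p and replicate 1 for miR-210-3p and NC. These are 3 of the other 9 genes, and 9.47% of all genes tested (2015) had these signs. The mean gap was 0.52 for MCL1, 0.44 for BBC3 and 0.21 for BAK1. At the other end, BID (0.05), PMAIP1 (0.08) and BCL2L11 (0.09) had gaps under the median of all genes.

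**Figure D3:**
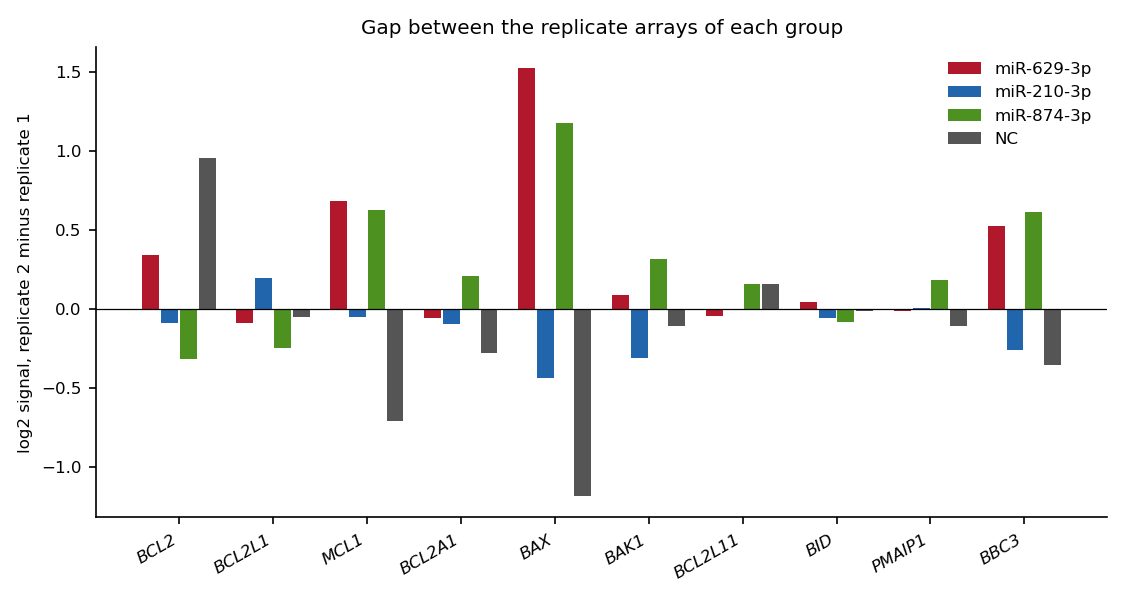
Log2 signal of replicate 2 minus that of replicate 1 in each group, for the 10 genes. BAX had the tallest bars, from -1.19 with NC to 1.53 after miR-629-3p, and MCL1, BAK1 and BBC3 had bars of the same signs.

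BAK1, the other effector, held a narrow range. Its signal was 3.16 and 3.25 after miR-629-3p, 3.41 and 3.10 after miR-210-3p, 3.12 and 3.43 after miR-874-3p, and 3.52 and 3.41 with NC. The miR-629-3p arrays lay under both NC arrays, and the other groups overlapped. The difference from NC was -0.26 (95% interval -0.63 to 0.12) after miR-629-3p, -0.21 (-0.58 to 0.17) after miR-210-3p and -0.19 (-0.57 to 0.18) after miR-874-3p, and none was called.

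Of the BH3-only genes, PMAIP1 rose after miR-629-3p and after miR-210-3p. NOXA, its product, binds MCL1 and BCL2A1 and is switched on by p53 and by the stress factors ATF4 and DDIT3. The signal was 4.09 and 4.08 after miR-629-3p, 3.77 and 3.77 after miR-210-3p, 3.40 and 3.58 after miR-874-3p, and 3.18 and 3.08 with NC. The 4 groups did not overlap. The rise over NC was 0.96 ± 0.09 (SE, log2 scale, adjusted p = 0.00547, 1.94-fold) after miR-629-3p and 0.64 ± 0.09 (adjusted p = 0.0219, 1.56-fold) after miR-210-3p. After miR-874-3p the difference was 0.36 (95% interval 0.14 to 0.57, adjusted p = 0.152), which was not called.

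The PMAIP1 call after miR-629-3p held without any 1 array (adjusted p from 0.00579 to 0.0470), while that after miR-210-3p was lost without any 1 of the miR-629-3p, miR-210-3p and NC arrays (0.0635 to 0.127). The genes whose values followed PMAIP1 most closely over the 8 arrays were CEACAM4 (Pearson r = 0.998), SSFA2 (0.993) and SYNJ2 (0.991). These are the 3 highest of all genes tested and are given as a description, since 8 arrays in 4 groups share their groups and the 3 were picked for their r.

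BCL2L11 encodes BIM, which binds all the guardians and can engage BAX itself. Its signal was 1.57 and 1.53 after miR-629-3p, 2.30 and 2.29 after miR-210-3p, 2.08 and 2.24 after miR-874-3p, and 1.80 and 1.96 with NC. The groups did not overlap, and the miR-629-3p arrays were the lowest and the miR-210-3p arrays the highest. Against NC neither end passed the test, with -0.33 (95% interval -0.56 to -0.11, adjusted p = 0.0622) for miR-629-3p and 0.42 (0.19 to 0.64, adjusted p = 0.0591) for miR-210-3p. Set against other mimics, BCL2L11 after miR-629-3p fell by 0.75 (log2 scale, SE 0.09, adjusted p = 0.00671, 1.68-fold) relative to miR-210-3p. It fell by 0.61 (SE 0.09, adjusted p = 0.0135, 1.53-fold) relative to miR-874-3p.

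The 2 other BCL2L11 probes were also lowest after miR-629-3p. A_33_P3251932 gave 1.01 and 0.63 after miR-629-3p, 1.20 and 1.27 after miR-210-3p, 1.50 and 1.45 after miR-874-3p, and 1.11 and 1.39 with NC. A_33_P3398526 gave 0.62 and 0.35, 1.22 and 1.05, 1.04 and 0.80, and 0.75 and 0.89 for the groups in the same order. On each probe both miR-629-3p arrays lay under the other 6 arrays. Tested probe by probe over 27303 probes, the difference between miR-629-3p and miR-210-3p was -0.42 (adjusted p = 0.114) on A_33_P3251932 and -0.65 (adjusted p = 0.0284) on A_33_P3398526. Between miR-629-3p and miR-874-3p it was -0.66 (adjusted p = 0.0453) on A_33_P3251932 and -0.435 (adjusted p = 0.0960) on A_33_P3398526. Each of the 2 comparisons was thus called on 1 of these probes. The probes parted on miR-210-3p against NC, with -0.01 on A_33_P3251932 and 0.32 on A_33_P3398526.

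**Figure D4:**
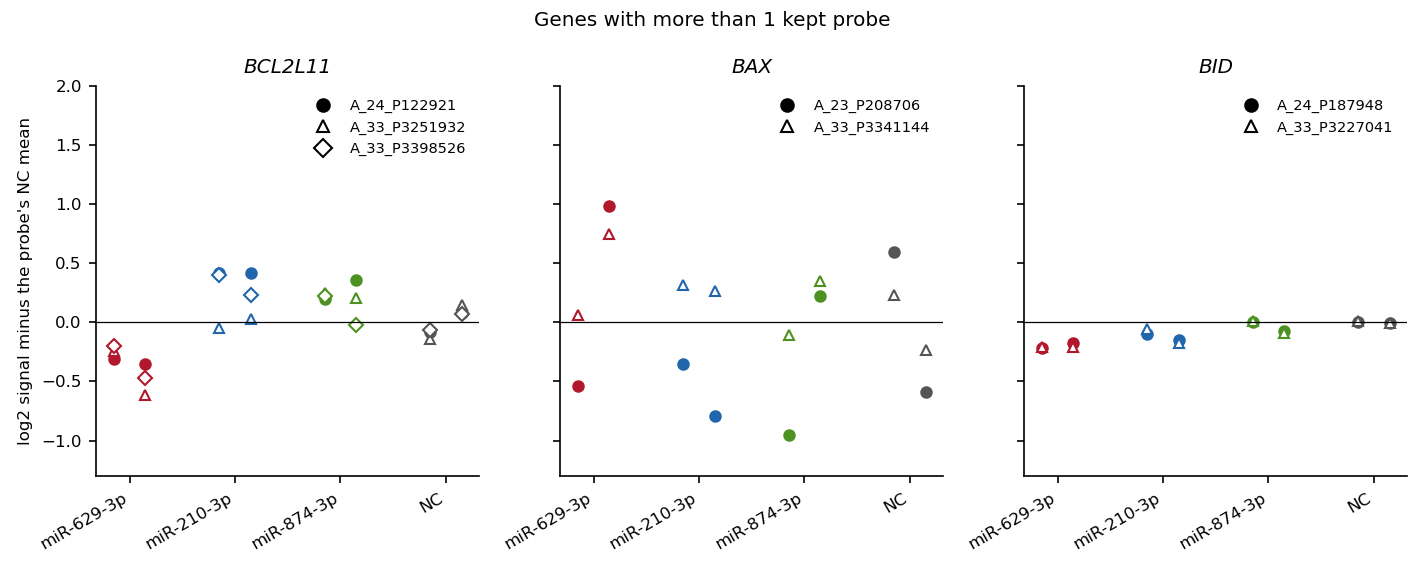
Log2 signal of each array minus the mean of the probe's NC arrays, for the genes with more than 1 probe past the filter. Filled circles are the brightest probe, which was used in the tests, and open symbols the other probes. The miR-629-3p arrays of all 3 BCL2L11 probes lay under 0, and the 2 BID probes nearly coincided.

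BID, which caspase-8 cuts to link death receptors to the mitochondrion, had small differences between groups. Its signal was 5.50 and 5.54 after miR-629-3p, 5.62 and 5.56 after miR-210-3p, 5.72 and 5.64 after miR-874-3p, and 5.72 and 5.71 with NC. Both miR-629-3p arrays lay under the other 6. The difference from NC was -0.20 (95% interval -0.37 to -0.02, adjusted p = 0.113) after miR-629-3p, and the second BID probe gave -0.21 (-0.40 to -0.01). It was -0.13 after miR-210-3p and -0.04 after miR-874-3p, and none was called.

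BBC3 encodes PUMA, a p53 target that blocks all the guardians. Its signal was 2.05 and 2.57 after miR-629-3p, 2.21 and 1.95 after miR-210-3p, 1.93 and 2.54 after miR-874-3p, and 2.33 and 1.98 with NC. All groups overlapped with NC. The difference from NC was 0.15 (95% interval -0.54 to 0.85) after miR-629-3p, -0.07 (-0.77 to 0.62) after miR-210-3p and 0.08 (-0.62 to 0.78) after miR-874-3p.

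Between the mimics, miR-629-3p and miR-210-3p shared a slide row, in different columns. BCL2L11 was the 1 gene of 10 called there, against 22.6% of all genes, and it was lost without miR-210-3p replicate 1 (adjusted p = 0.0502). In the fit on the 4 arrays of that row alone 3 of the 10 genes were called, against 28.2% of all genes, with BCL2L11 at -0.75 (adjusted p = 0.0106), PMAIP1 at 0.32 (adjusted p = 0.0317) and BCL2A1 at 0.34 (adjusted p = 0.0408). In the fit on all arrays PMAIP1 was 0.32 higher (SE 0.09, adjusted p = 0.0533) and BCL2L1 0.22 higher (SE 0.12, adjusted p = 0.224) after miR-629-3p. Against miR-874-3p, 3 of 10 genes were called after miR-629-3p (16.2% of all genes). PMAIP1 rose by 0.60 (SE 0.09, adjusted p = 0.0129) and BCL2L1 by 0.66 (SE 0.12, adjusted p = 0.0203), while BCL2L11 fell as given above. These 2 groups lay in different slide rows, and all 3 calls were lost without either miR-629-3p array, where 2.51% and 2.77% of all genes were called. Between miR-210-3p and miR-874-3p limma called 0 of 10 genes (9.8% of all genes) and 2 at an unadjusted p under 0.05, BCL2L1 and PMAIP1 (28.3% of all genes).

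The rest of the BCL2 family and the steps on either side of it were read from lists, with counts of called genes against NC. The lists were chosen with earlier results of these data known, so their counts beside the shares of all genes are a description. Of 11 other BCL2 family genes tested, 0 rose and 2 fell after miR-629-3p, beside 9.28% of all genes that rose and 7.47% that fell. BNIP3, a hypoxia-induced mitophagy receptor, fell by 1.35 ± 0.07 (SE, log2 scale, adjusted p = 0.00123), and HRK, a BH3-only gene, fell by 0.61 ± 0.09 (adjusted p = 0.0148). After miR-210-3p and after miR-874-3p 0 of the 11 were called, beside 6.05% and 0.423% of all genes. The median difference of the 11 genes after miR-629-3p was -0.01, beside 0.03 over all genes.

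Downstream of the mitochondrion, CASP6, a caspase, fell by 0.58 (adjusted p = 0.0136) after miR-629-3p, as did HTRA2, a mitochondrial protease that inhibits the inhibitors of apoptosis, by 0.35 (adjusted p = 0.0410). CASP10, an initiator caspase of death receptors, rose by 1.52 (adjusted p = 0.0340) after the same mimic. Of all genes 9.28% rose and 7.47% fell after miR-629-3p. Not every gene of this list is reported here, so no count of its calls is given. Of 7 inhibitors of apoptosis, BIRC3 and XIAP rose with both miR-629-3p (9.28% of all genes) and miR-210-3p (3.85%). The rise of BIRC3 was 0.80 and 0.78, and that of XIAP, which blocks caspases, was 0.36 and 0.38 (adjusted p from 0.0135 to 0.0378).

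Of 9 death receptor genes tested, 0 were called with any mimic by limma. Of all genes, 9.28% rose and 7.47% fell after miR-629-3p, and 3.85% rose and 2.2% fell after miR-210-3p. With miR-874-3p 0.423% of all genes were called. TNFRSF10D, a decoy receptor for TRAIL, had 0.51 (adjusted p = 0.0619) after miR-874-3p, which was not called. This gene was named after its value was seen. Of 12 transcription factors and kinases that act upstream of BH3-only genes, DDIT3 (CHOP), an endoplasmic reticulum stress factor that switches on BCL2L11 and PMAIP1 in many cells, rose by 1.48 ± 0.07 (adjusted p = 0.000881) after miR-629-3p and by 0.45 ± 0.07 (adjusted p = 0.0255) after miR-210-3p. E2F1 rose by 0.42 (adjusted p = 0.0451) after miR-210-3p. After miR-874-3p DDIT3 differed by 0.25 (adjusted p = 0.166). Of 11 genes for partners and turnover of the family, BTRC, a ubiquitin ligase subunit, rose by 0.67 (adjusted p = 0.0237) after miR-629-3p. Otherwise 0 were called, beside the shares of all genes given above.

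Of 11 p53 response genes, GADD45A (1.30, adjusted p = 0.00634) and MDM2 (0.90, adjusted p = 0.00574) rose and FDXR fell by 0.72 (adjusted p = 0.0109) after miR-629-3p, beside 9.28% and 7.47% of all genes. After miR-210-3p TIGAR, named C12orf5 on the array, rose by 1.02 (adjusted p = 0.0420) and FDXR fell by 0.59 (adjusted p = 0.0314), beside 3.85% and 2.2% of all genes. Of 14 interferon response genes, 6 rose after miR-629-3p (9.28% of all genes), with OASL (1.65), IFIT1 (0.91), IFI44 (0.90) and IFIT3 (0.79) having the largest rises. After miR-210-3p 4 had an adjusted p under 0.05 and lower values (2.2% of all genes), OASL (-1.66), IFI44 (-1.61), MX1 (-1.01) and IFI44L. The IFI44L probe was well above background only on the miR-629-3p arrays and passed the filter through that group. It was not well above background on the arrays of miR-210-3p or NC, so its call is not a measured fall and no fold is given. After miR-874-3p 0 genes were called in any of the 8 lists, beside 0.423% of all genes. How far these genes account for the changes in the BCL2 family was not tested.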

How the data were processed

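Whole-transcriptome arrays of SAS cells in 4 groups of 2 were used. The deposited scanner files hold intensity values, of which the processed signal, background-subtracted by the authors' Agilent Feature Extraction 11.5.1.1, was used. It carries no normalization between arrays. A log2 table that the authors deposited lay within 0.05 of the scanner-derived values after an offset of -0.05 to 0.004 per array and served as an alternative. Log2 of the processed signal minus the array's 75th percentile over gene probes was taken, without the 87 to 346 outlier spots of each array, as the mean over a probe's spots. Probes entered the tests if they had a value on every array and if 1 group or more had them well above background on both of its arrays. The brightest such probe stood for a gene. Adjusted p-values, standard errors and intervals come from limma 3.58.1 in R 4.3.3, with 4 residual and 1.68 prior degrees of freedom and Benjamini-Hochberg adjustment over 21283 genes. The script was tested on simulated data.

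The genes named are the 10 family genes, up to 4 called genes with the largest change per list and comparison with NC, and the 3 genes most like the gene with the largest F. TNFRSF10D and the value of DDIT3 for miR-874-3p were added after their values were seen. Some genes of the lists are not reported here. The members and lists were chosen with earlier results of these data known. Lists were counted without a set test. The methods name a t-test and ANOVA but no test for the arrays, so both were run as alternatives. Probe positions follow the array annotation (hg19). Protein sequences were not used here. Precision is limited by the number of arrays.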

Additional observations from a re-analysis of the deposited data

How the results depend on the processing

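Calls for PMAIP1 and BCL2L1 with miR-629-3p against NC held under 14 of 15 alternatives that kept all arrays, with the methods' t-test as the exception (adjusted p = 0.100 and 0.102), and that of BCL2A1 under 12. The t-test, which uses 2 arrays a group alone, called 0 of 10 genes for miR-629-3p against NC, miR-210-3p against NC and miR-629-3p against miR-874-3p (3, 2 and 3 with limma) and 2 for miR-629-3p against miR-210-3p (1 with limma), where of all genes it called 0, 1, 0 and 1257. In the fits on the groups compared alone, the counts were 0 for miR-210-3p against NC, 0 for miR-629-3p against miR-874-3p and 3 for miR-629-3p against miR-210-3p, which is also the fit within a slide row (3), an alternative chosen after seeing the data. Of all genes these fits called 0.827%, 1.26% and 28.2%. Normexp, quantile normalization, median centring, the authors' values, kept outliers, a floor, detection on all 8 arrays and eBayes with trend each gave 2 for miR-629-3p against miR-210-3p (20.8% to 31.3% of all genes). For miR-210-3p against NC the count was 1 with quantile normalization, 1 with median centring, 1 with the percentile over spots (chosen after seeing the data) and 0 with no filter (0.108% of all genes). For miR-210-3p against miR-874-3p it was 1 with normexp, 1 with detection on all 8 arrays and 2 with trend, and trend gave 5 for miR-629-3p against NC (22.8% of all genes). The cause was not tested.

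Arrays with the same replicate number shared little deviation between groups (correlations from -0.11 to 0.03). Such values cannot show whether the replicates were handled as pairs. With the replicate block 0 genes were called for miR-210-3p against NC (2.31% of all genes), BCL2A1 was lost with miR-629-3p (adjusted p = 0.0658), and the other counts stayed within 1.5 times.

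Leaving out 1 array at a time, the count ranged from 0 to 3 for the F test, 1 to 4 for miR-629-3p against NC, 0 to 3 for miR-210-3p against NC, 0 to 2 for miR-629-3p against miR-210-3p, 0 to 3 for miR-629-3p against miR-874-3p and 0 to 1 for miR-210-3p against miR-874-3p, and stayed at 0 for miR-874-3p against NC. The share of all genes called moved too, from 3.24% to 30.9%, 2.18% to 21.9%, 0.371% to 10.9%, 4.65% to 28.3%, 2.51% to 19.8%, 0.728% to 13.3% and 0.103% to 1.33% in the same order.

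Signs turned only for differences that were not called. With quantile normalization BID was 0.014 (miR-874-3p against NC) and 0.002 (miR-629-3p against miR-210-3p) and BAK1 0.03 (miR-629-3p against miR-210-3p), and with the authors' values or kept outliers BAK1 was 0.019 (miR-210-3p against miR-874-3p). With 1 array left out, BCL2 ranged from -0.257 to 0.084 (miR-629-3p against miR-210-3p), -0.091 to 0.863 (miR-874-3p against NC). BAX ranged from -0.538 to 0.987 (miR-629-3p against NC), -0.169 to 1.356 (miR-629-3p against miR-874-3p), -0.790 to 0.387 (miR-210-3p against miR-874-3p), -0.963 to 0.225 (miR-874-3p against NC), -1.164 to 0.023 (miR-210-3p against NC). BBC3 ranged from -0.109 to 0.419 (miR-629-3p against NC), -0.036 to 0.493 (miR-629-3p against miR-210-3p), -0.233 to 0.383 (miR-629-3p against miR-874-3p), -0.251 to 0.103 (miR-210-3p against NC), -0.228 to 0.388 (miR-874-3p against NC), -0.462 to 0.155 (miR-210-3p against miR-874-3p). MCL1 ranged from -0.012 to 0.670 (miR-629-3p against miR-874-3p), -0.281 to 0.430 (miR-874-3p against NC), -0.578 to 0.049 (miR-210-3p against miR-874-3p), -0.545 to 0.165 (miR-210-3p against NC). BAK1 ranged from -0.206 to 0.103 (miR-629-3p against miR-210-3p), -0.173 to 0.143 (miR-210-3p against miR-874-3p), -0.224 to 0.092 (miR-629-3p against miR-874-3p). BCL2A1 ranged from -0.038 to 0.242 (miR-874-3p against NC). BID ranged from -0.078 to 0.004 (miR-874-3p against NC).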
